A study of Mus musculus with 12 samples.

Results

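The genes described here encode the metalloproteinases of the ADAM, ADAMTS and MMP families, the ADAMTS-like proteins, and the tissue inhibitors of metalloproteinases (TIMPs). They were taken by symbol, as every row of the nuclear RNA count table whose name begins with Adam or Mmp or Timp and a digit, or with Adamts. This gave 84 of the 46983 gene symbols in the table, namely 33 ADAM, 19 ADAMTS, 5 ADAMTS-like, 23 MMP and 4 TIMP genes. Of these, 71 had a count in any library, 13 had 0 counts in all 4 libraries, and 57 passed the filter on low counts and were tested. The RNA came from nuclei of adult mouse cardiomyocytes, bound to beads through the centriolar satellite protein PCM1. Control mice carried Myh6-MCM, a tamoxifen-inducible Cre recombinase driven by the Myh6 (cardiac myosin) promoter, and received tamoxifen. YAP5SA mice carried Myh6-MCM and the transgene allele Yap5SA+/tg and also received tamoxifen, so that both groups share the Cre and the drug, and the promoter limits Cre to cardiomyocytes. YAP5SA is a YAP protein that the Hippo kinases cannot inhibit, YAP being a co-activator of transcription. There were 2 libraries in each group, and no label says whether they came from separate or pooled animals. The p-values therefore cover the spread among these libraries alone, which may be technical.

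ADAM proteins sit in the plasma membrane and cut the outer parts of other membrane proteins, which releases growth factors and cytokines or starts receptor signalling. ADAMTS proteins are secreted and cut matrix molecules such as versican, aggrecan and procollagen. MMPs cut collagens and many other matrix and cell surface proteins. TIMPs block MMPs and some of the ADAM and ADAMTS enzymes, to different degrees. ADAMTS-like proteins resemble the ancillary part of the ADAMTS enzymes but have no protease domain. In the heart these families take part in valve and chamber formation and in matrix remodelling after injury.

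Total counts ran from 7850661 to 15012122 per library, and levels are given as CPM (the count of a gene relative to the scaled total of its library). Where a gene had 0 counts in a library, up to 3 counts remain possible, or 0.202 to 0.397 CPM. Such limits cover counting error only. The control libraries differed from each other more than the YAP5SA libraries did, with a biological coefficient of variation of 34.3% against 8.44%. Cardiomyocyte markers were abundant, at a summed 33015 and 67817 CPM over 10 genes in control replicates 1 and 2. In the YAP5SA libraries the sum was 23664 and 25167 CPM. All 10 were negative in log2 fold change (median -1.09), and for 7 both YAP5SA libraries lay below both control libraries. None was past the threshold with edgeR, the main tool, where 4 had an unadjusted p under 0.05. DESeq2, a second tool, called Myl2, Tnni3, Ryr2 and Myh6 lower. Markers of other cell types were present too. All 12 macrophage and monocyte markers had a positive fold change, 5 of them past the threshold, and their summed level was 590 to 792 CPM in control and 1441 to 1730 CPM in YAP5SA. All 10 endothelial markers had a negative fold change, 2 of them past the threshold, with summed levels of 1334 to 1964 CPM in control and 901 to 932 CPM in YAP5SA. The summed level of the 10 fibroblast markers was 7084 to 8682 CPM in control and 6636 to 8287 CPM in YAP5SA. It was 1260 to 1433 and 1437 to 1605 CPM for 8 smooth muscle and pericyte markers. Of these 8, Acta2 rose (158 and 97.5 against 712 and 917 CPM) and 5 had a negative fold change, none past the threshold. The summed level was 111 to 149.8 and 201 to 234 CPM for 6 epicardial markers. It was 11.1 to 15.2 and 24.8 to 25.1 CPM for 5 Schwann cell markers. Of the 4 Schwann cell markers tested, Mbp rose and 3 had a negative fold change, with a median log2 fold change of -0.53. The summed level was 6.87 to 7.79 and 4.63 to 4.78 CPM for 7 neutrophil markers, of which Elane was at 0 counts in all libraries. The part of these cell types in the results on the protease and inhibitor genes was not tested. In bulk RNA, fewer cells of a type and less RNA per cell cannot be told apart.

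Of the 57 tested genes, 6 rose in YAP5SA (10.5%) and 1 fell (1.75%), where over all 17715 tested genes 3.12% rose and 0.999% fell. The test was the quasi-likelihood test of edgeR with Benjamini-Hochberg adjustment over all tested genes and a threshold of 0.05, and adjusted p-values below are from it unless another tool is named. The genes that rose were Adamts5, Timp2, Adamtsl3, Adamts1, Adamtsl4 and Adam9, and the gene that fell was Adam11. An unadjusted p under 0.05 was reached by 13 higher and 8 lower genes, or 22.8% and 14.0%, against 12.7% and 10.9% of all tested genes. Both YAP5SA libraries lay above both control libraries for 18 genes (31.6%) and below them for another 18 (31.6%), where these shares were 28.1% and 28.3% over all tested genes. The median log2 fold change of the 57 genes, YAP5SA minus control, was -0.15, against -0.06 over all tested genes. DESeq2 tested 71 genes of the families, 13 of which got no adjusted p, and 10 rose (14.1%) and 2 fell (2.82%). Of all 30546 genes it tested, 3.50% rose and 1.73% fell. The limma-voom fit called the same 7 genes as edgeR, with 3.12% and 0.903% of all genes.

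**Figure D1:**
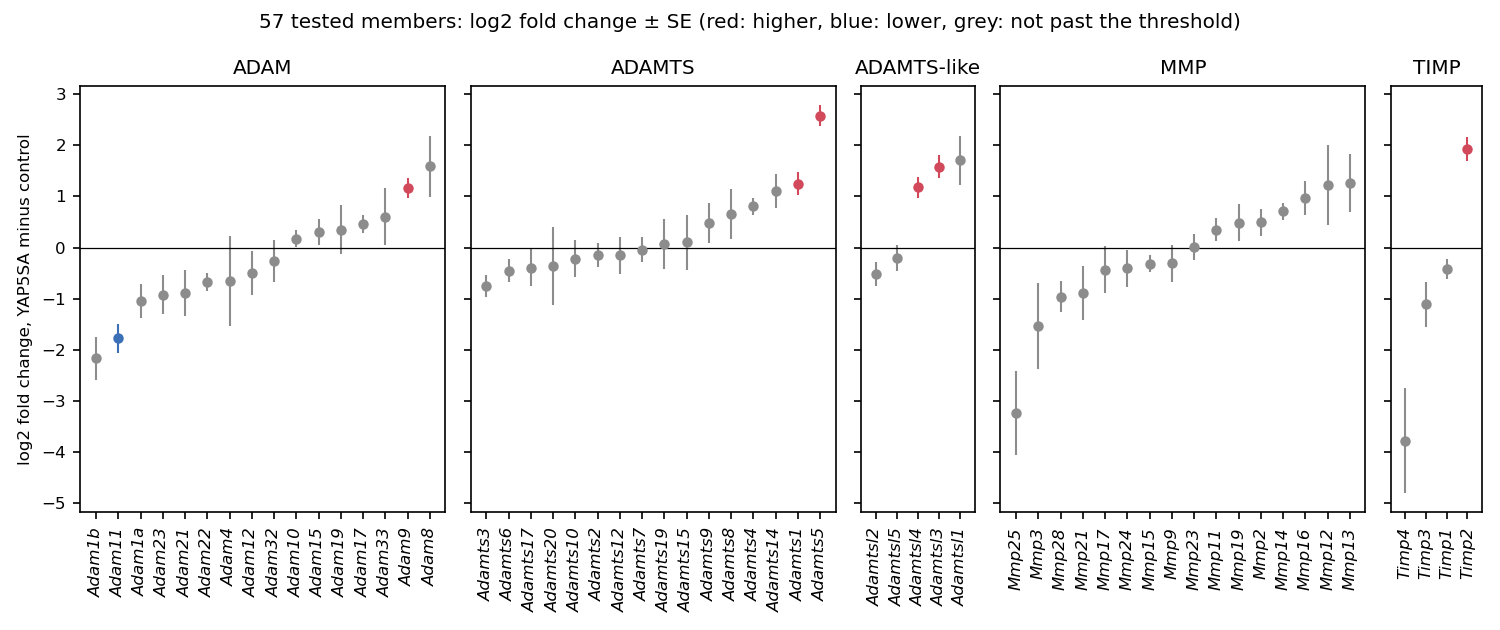
Log2 fold change, YAP5SA minus control, with its standard error for the 57 tested genes, each family sorted from low to high (red, past the threshold upward; blue, past it downward; grey, not past it). The genes past the threshold are Adamts5, Timp2, Adamtsl3, Adamts1, Adamtsl4 and Adam9 upward and Adam11 downward.

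The proteoglycan-cutting ADAMTS enzymes held the largest increase. Adamts5, which encodes an enzyme that cuts aggrecan and versican (chromosome 16, 85856173 to 85901828, mm10), measured 49.2 and 39.3 CPM in control and 247 and 280.1 CPM in YAP5SA. Both YAP5SA libraries were above both controls, and the rise from 44.2 ± 7.01 to 263 ± 23.7 CPM (SD, n = 2) was 5.95-fold (log2 fold change 2.57, SE 0.204, adjusted p = 0.0151). It kept its call in 11 of the 12 alternative settings, the exception being the fit without YAP5SA replicate 2 (adjusted p = 0.0676). Timp2 and Adamtsl3 kept theirs in 10 of the 12, Adamtsl4 and Adam11 in 9, and Adamts1 and Adam9 in 8. The 12 settings include the fits without a control library, where the spread comes from the YAP5SA pair alone and a kept call says little. They also include a crossed replicate block chosen after the data were seen. Adamts1, which encodes a secreted protease of versican and aggrecan (chromosome 16, 85793827 to 85803113), measured 328 and 387 CPM in control and 812 and 887 CPM in YAP5SA. This rise from 358 ± 41.5 to 849 ± 52.9 CPM (SD, n = 2) was 2.38-fold (log2 fold change 1.25, SE 0.221, adjusted p = 0.0477), with no overlap between the groups.

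Adamts4, the third classical aggrecan-cutting enzyme, was at 39.9 and 40.7 CPM in control and 64.8 and 76.0 CPM in YAP5SA and did not pass (log2 fold change 0.80, adjusted p = 0.0655). It passed with DESeq2. The other genes of this subgroup overlapped between the groups. Adamts9, which encodes a protease of versican, was at 206 and 89.9 CPM in control and 201 and 212 CPM in YAP5SA, so that control replicate 2 alone was low. It shares 1381 exon bases with A730049H05Rik on the other strand, which rose (8.24 and 5.42 against 22.2 and 24.1 CPM, adjusted p = 0.0380). Adamts15 was at 18.1 and 59.1 CPM in control and 35.2 and 47.3 CPM in YAP5SA, and Adamts8 at 7.88 and 23.1 against 22.6 and 25.7 CPM. For Adamts20 the values were 0.996 and 5.42 CPM in control and 2.22 and 2.58 CPM in YAP5SA. Over the 7 genes the median log2 fold change was 0.66, with 6 positive values, 2 genes that rose and 0 that fell (1 more rose with DESeq2 and 0 more with limma-voom).

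Of the promoters of the 6 genes that rose, 4 are in the RefSeq promoter table used here (Adamts1, Adamtsl3, Adamtsl4 and Timp2), each from 250 bases before to 50 bases after a transcription start. The ones of Adamts1 and Timp2 are shown because these are the most abundant genes of the 4. They lie on the minus strand of GRCm38.p6 at chr16:85803064-85803363 and chr11:118355362-118355661 and are written 5′ to 3′ in lower case.
Adamts1: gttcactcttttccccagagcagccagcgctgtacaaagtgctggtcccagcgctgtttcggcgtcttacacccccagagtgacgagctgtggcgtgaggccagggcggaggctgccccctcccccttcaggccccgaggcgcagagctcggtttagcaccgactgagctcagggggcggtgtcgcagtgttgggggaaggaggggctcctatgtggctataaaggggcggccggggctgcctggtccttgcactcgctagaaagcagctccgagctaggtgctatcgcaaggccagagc
Timp2: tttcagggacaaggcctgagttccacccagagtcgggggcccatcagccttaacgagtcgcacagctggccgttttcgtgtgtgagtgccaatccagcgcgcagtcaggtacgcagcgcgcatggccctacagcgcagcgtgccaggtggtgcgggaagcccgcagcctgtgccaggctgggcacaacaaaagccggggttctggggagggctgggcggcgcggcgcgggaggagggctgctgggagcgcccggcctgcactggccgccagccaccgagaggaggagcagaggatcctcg
They were searched on both strands for GGAATG, the core letters bound by TEAD factors, the DNA-binding partners of YAP. They were also searched for TGANTCA, where N is any base, a pattern wider than the AP-1 site letters TGAGTCA and TGACTCA. None of the 4 promoters holds either, which says only that these letters are not in these windows. Of all 32851 promoters listed, 14.7% hold GGAATG and 7.81% hold TGANTCA. Of 58 promoters of 53 genes of the families, 4 hold GGAATG (6.90%), those of Adam19, Adam1a, Adamts13 and Timp1, and 13 hold TGANTCA (22.4%). In Adam20, Adam25 and Mmp20 the letters found were TGAATCA, and in the other genes TGAGTCA or TGACTCA.

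None of the other ADAMTS enzymes passed with edgeR, DESeq2 or limma-voom. Among the procollagen N-proteinases, which trim fibrillar procollagens, Adamts2 was at 148 and 98.1 CPM in control and 107 and 115 CPM in YAP5SA, and the groups overlapped. Adamts3 was at 17.7 and 15.6 CPM in control and 10.5 and 9.34 CPM in YAP5SA (log2 fold change -0.74, adjusted p = 0.118), and Adamts14 was at 2.17 and 2.64 against 4.85 and 5.47 CPM (log2 fold change 1.10, adjusted p = 0.127). Both had an unadjusted p under 0.05, in opposite directions, and neither passed. Of the remaining 9 ADAMTS genes 6 were tested, with log2 fold changes from -0.45 (Adamts6) to 0.07 (Adamts19). None of these 6 passed with edgeR, DESeq2 or limma-voom, and 0 had an unadjusted p under 0.05 with edgeR. Adamts13, which encodes the protease of von Willebrand factor, had 11 and 1 counts in control and 3 and 1 in YAP5SA. Adamts16 had 2 to 4 counts per library and Adamts18 a single count, in YAP5SA replicate 2, so these 3 genes were not tested.

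Of the 5 ADAMTS-like genes, 2 rose, 0 fell, and the median log2 fold change was 1.17 (1 more rose and 0 fell with DESeq2, and limma-voom called the same number as edgeR). Adamtsl3, whose product punctin-2 is a secreted matrix protein (chromosome 7, 82335694 to 82614450), measured 18.7 and 25.9 CPM in control and 63.4 and 69.7 CPM in YAP5SA. The rise from 22.3 ± 5.13 to 66.6 ± 4.46 CPM (SD, n = 2) was 2.995-fold (log2 fold change 1.58, SE 0.219, adjusted p = 0.0323). Adamtsl4, whose product binds fibrillin-1 microfibrils (chromosome 3, 95676201 to 95687917), measured 83.5 and 65.2 CPM in control and 151 and 184 CPM in YAP5SA (log2 fold change 1.17, SE 0.208, adjusted p = 0.0477). The groups did not overlap for either gene. Adamtsl1, whose product is called punctin, was at 2.17 and 5.68 CPM in control and 11.4 and 13.6 CPM in YAP5SA. Its log2 fold change of 1.70 did not pass (adjusted p = 0.111), the control libraries differed 2.61-fold, and it passed with DESeq2. Adamtsl2, which encodes another fibrillin-binding protein, had a log2 fold change of -0.51 and Adamtsl5 one of -0.21, and neither passed (adjusted p = 0.262 and 0.655).

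Among the ADAM genes with an active protease site, Adam9 rose. It encodes a widely expressed membrane sheddase (chromosome 8, 24949611 to 25016927) and measured 211 and 234 CPM in control and 472 and 525 CPM in YAP5SA. The rise from 222 ± 16.8 to 499 ± 37.8 CPM (SD, n = 2) was 2.24-fold (log2 fold change 1.16, SE 0.195, adjusted p = 0.0437), with no overlap. The principal sheddases moved less. Adam10, which encodes the main sheddase of Notch receptors, was at 124 and 139 CPM in control and 140.2 and 157 CPM in YAP5SA (log2 fold change 0.17, SE 0.170, adjusted p = 0.577). Adam17, which encodes the protease that releases TNF and several EGF receptor ligands, was at 67.7 and 78.6 CPM in control and 94.1 and 107 CPM in YAP5SA (log2 fold change 0.46, SE 0.174, adjusted p = 0.193). Their YAP5SA libraries lay above their control libraries by small margins. Adam17 shares 311 exon bases with Iah1 on the other strand, and Iah1 rose in YAP5SA (7.34 and 9.52 against 19.9 and 21.9 CPM, adjusted p = 0.0465). The library kit keeps strand, but no source used here says whether the counting did, so reads of overlapping pairs cannot be told apart. Other tested genes that share exon bases with one on the opposite strand include Adam15, Adam19, Adam1a, Adam8, Adamts7, Adamts8, Mmp11, Mmp12, Mmp19, Mmp24, Mmp28, Timp3 and Timp4, beside Adamts9 above.

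Adam8, which encodes a protease found mainly on leukocytes, was at 27.5 and 6.74 CPM in control and 50.5 and 54.2 CPM in YAP5SA. It missed the threshold (log2 fold change 1.59, SE 0.595, adjusted p = 0.189) and passed with DESeq2 (adjusted p = 0.0310). The log2 fold change was 2.96 without control replicate 1 and 0.96 without control replicate 2. Macrophage markers were higher in the same libraries, as given above, and their part in this value was not tested. Adam19, known from mouse heart valve and septum formation, was at 68.6 and 200.1 CPM in control and 172 and 169 CPM in YAP5SA, so that the YAP5SA values lay between the control values. Adam12, Adam15 and Adam33 also overlapped between the groups, and Adam28 had at most 1 count per library. Of the 8 tested genes with an active site, 1 rose and 0 fell (2 and 0 with DESeq2, 1 and 0 with limma-voom), and 7 fold changes were positive (median log2 fold change 0.40).

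Of the 3 ADAM genes without an active protease site, whose products are neural adhesion proteins and partners of LGI proteins, Adam11 fell. Adam11 (chromosome 11, 102761439 to 102780262) measured 16.4 and 19.96 CPM in control and 4.38 and 6.23 CPM in YAP5SA. It fell from 18.2 ± 2.52 to 5.30 ± 1.31 CPM (SD, n = 2), 3.42-fold (log2 fold change -1.78, SE 0.278, adjusted p = 0.0394). Adam22 was at 29.5 and 33.8 CPM in control and 20.6 and 19.1 CPM in YAP5SA (log2 fold change -0.67, adjusted p = 0.103), and Adam23 at 6.16 and 3.97 against 2.36 and 3.04 CPM (log2 fold change -0.92, adjusted p = 0.220). All 3 genes were lower in both YAP5SA libraries than in both control libraries, as were 28.3% of all tested genes, and Adam11 alone passed.

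The ADAM genes known mainly from testis and epididymis were at low counts or 0. Of these 21 genes 10 had 0 counts in all 4 libraries, 6 more had 1 to 38 counts in all and were not tested, and 5 were tested, with negative log2 fold changes from -2.16 to -0.26. Adam1b was at 6.34 and 9.65 CPM in control and 2.22 and 1.29 CPM in YAP5SA (log2 fold change -2.16, adjusted p = 0.0562), and Adam1a at 4.89 and 7.01 against 2.83 and 2.89 CPM (log2 fold change -1.05, adjusted p = 0.147). None of the 5 passed with edgeR or limma-voom, 2 had an unadjusted p under 0.05, and Adam1b fell with DESeq2. Both Adam1 genes overlap Tmem116, which lies on the other strand and was also lower, at 15.6 and 19.0 CPM in control and 7.61 and 6.23 CPM in YAP5SA. Adam1a also shares exon bases with Mapkapk5 and a predicted gene on its own strand, so that its level is uncertain. Adam3 had 0 counts in both control libraries and 3 in each YAP5SA library, and Adam29 0 and 1 in the same way, which is within the counting limit.

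**Figure D2:**
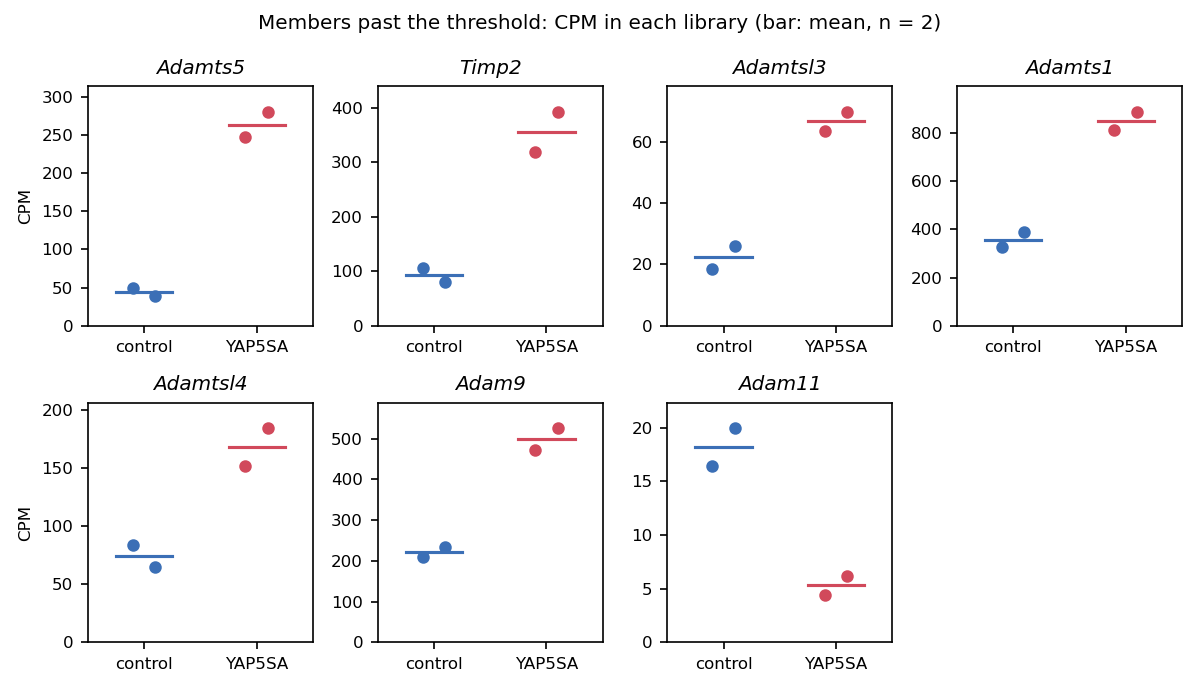
CPM in each library for the 7 genes past the threshold, with the group mean as a bar (n = 2 libraries per group; each vertical axis starts at 0). In all 7 panels the control and YAP5SA libraries are separate, and Adam11 is the one gene that is lower in YAP5SA.

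None of the 16 tested MMP genes passed with edgeR or with limma-voom, and with DESeq2 Mmp14 alone rose. At an unadjusted p under 0.05 with edgeR there were 2 higher (Mmp14 and Mmp16) and 2 lower (Mmp25 and Mmp28). Mmp14, which encodes the membrane-type protease that activates proMMP2, was at 58.8 and 55.1 CPM in control and 87.5 and 98.9 CPM in YAP5SA, without overlap (log2 fold change 0.71, SE 0.163, adjusted p = 0.0768). Mmp2, which encodes gelatinase A, was at 47.8 and 29.5 CPM in control and 52.0 and 56.96 CPM in YAP5SA (log2 fold change 0.49, adjusted p = 0.319). Mmp9, which encodes gelatinase B, a major product of neutrophils and macrophages, was low in all libraries, with 2.26 and 2.25 CPM in control and 1.82 and 1.82 CPM in YAP5SA (log2 fold change -0.31, adjusted p = 0.648). Mmp16, a membrane-type MMP gene, was at 2.81 and 2.25 CPM in control and 4.78 and 5.16 CPM in YAP5SA (adjusted p = 0.159).

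Mmp25 and Mmp28 were the lower genes, both with few counts. Mmp25, which encodes a membrane-type MMP first described in leukocytes, had 35 and 7 counts in control and 2 and 4 in YAP5SA (log2 fold change -3.23, SE 0.823, adjusted p = 0.0940). Mmp28, which encodes epilysin, was at 5.52 and 5.95 CPM in control and 2.83 and 3.04 CPM in YAP5SA (log2 fold change -0.96, adjusted p = 0.139). Mmp3, which encodes stromelysin-1, was at 21.9 and 2.91 CPM in control and 4.31 and 4.40 CPM in YAP5SA. Its YAP5SA values lay between the control values. Mmp10, which encodes stromelysin-2, had 15 counts in control replicate 1 and 0 in the other 3 libraries. Mmp7, Mmp1a and Mmp20 had 0 counts throughout, and Mmp8, which encodes the neutrophil collagenase, had 4 to 9 counts per library.

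A run of 10 MMP genes lies on chromosome 9 between 7272514 and 7699585 (mm10), and 3 of them, Mmp3, Mmp12 and Mmp13, had enough counts to be tested. The promoters of all 10 are in the RefSeq table, and a promoter of 8 of them holds TGANTCA, in Mmp20 as TGAATCA. None of the other 8 MMP genes with a promoter in the table does, nor any ADAMTS, ADAMTS-like or TIMP gene, and 5 of 17 ADAM genes do. Genes of the run arose by duplication and share sequence, so these promoters are not independent. The stretches of the 3 tested genes are shown with the 7 matching letters in capitals and 20 bases on each side (GRCm38.p6, plus strand, 5′ to 3′), since they are the matches in genes of the run with measurable RNA. They lie at chr9:7445756-7445802 for Mmp3, chr9:7347310-7347356 for Mmp12 and chr9:7272459-7272505 for Mmp13.
Mmp3: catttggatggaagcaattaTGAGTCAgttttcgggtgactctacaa
Mmp12: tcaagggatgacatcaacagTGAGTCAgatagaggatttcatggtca
Mmp13: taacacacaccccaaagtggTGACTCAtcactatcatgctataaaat
The first capital is 46, 44 and 35 bases before the transcription start of Mmp3, Mmp12 and Mmp13. For Mmp12 the table has 2 promoters, and the other one, at the upstream start (chr9:7344147-7344446), does not hold the letters. The 3 genes did not share a direction. Mmp3 had a log2 fold change of -1.53 (adjusted p = 0.332). Mmp12, which encodes macrophage elastase, was at 0.453 and 2.78 CPM in control and 4.25 and 2.89 CPM in YAP5SA (log2 fold change 1.22, adjusted p = 0.390). Mmp13, which encodes collagenase 3, had 3 and 4 counts in control and 13 in each YAP5SA library (log2 fold change 1.26, adjusted p = 0.253). None of the 3 passed.

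Of the 4 TIMP genes, 1 rose and 0 fell with edgeR, DESeq2 and limma-voom. Timp2, whose product inhibits MMPs and also takes part in the activation of proMMP2 by MMP14 (chromosome 11, 118301069 to 118355740), measured 106 and 80.9 CPM in control and 319 and 393 CPM in YAP5SA. It rose from 93.3 ± 17.6 to 356 ± 52.8 CPM (SD, n = 2), 3.81-fold (log2 fold change 1.93, SE 0.230, adjusted p = 0.0284). The other TIMP genes were lower in both YAP5SA libraries than in both control libraries, as were 28.3% of all tested genes, and none passed. Timp1, which is induced in many inflamed tissues (chromosome X, 20870166 to 20874735), was at 214 and 183 CPM in control and 133 and 164 CPM in YAP5SA (log2 fold change -0.42, SE 0.197, adjusted p = 0.265). Timp3, whose matrix-bound product also inhibits ADAM and ADAMTS enzymes (chromosome 10, 86300372 to 86349506), was at 370.1 and 145 CPM in control and 129 and 110.0 CPM in YAP5SA (log2 fold change -1.11, SE 0.444, adjusted p = 0.212). Timp4, known for its high level in the heart (chromosome 6, 115241892 to 115252205), was at 108 and 11.9 CPM in control and 5.12 and 3.65 CPM in YAP5SA (log2 fold change -3.77, SE 1.02, adjusted p = 0.107).

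The size of the Timp3 and Timp4 differences rested on control replicate 1. Without it the log2 fold change was -0.27 for Timp3 and -1.42 for Timp4, and without control replicate 2 it was -1.60 and -4.57. These fits hold 1 control library, so that the spread comes from the YAP5SA pair alone, and they call 17.4% and 18.6% of all genes lower. Timp4 is among the called genes in both, Timp3 in the second. With DESeq2 the adjusted p of Timp4 was 0.0550. Timp3 shares 1733 exon bases with Syn3 and Timp4 shares 90 with Syn2, both on the other strand, and Syn3 and Syn2 were at 3.27 to 6.08 CPM in all libraries. Timp2 made up 13.3% and 19.3% of the summed CPM of the 4 TIMP genes in control and 54.5% and 58.7% in YAP5SA. These shares are not corrected for gene length. Per kilobase of exon, Timp1 stayed above Timp2 in YAP5SA (149 and 184 against 81.8 and 101 CPM per kilobase).

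**Figure D3:**
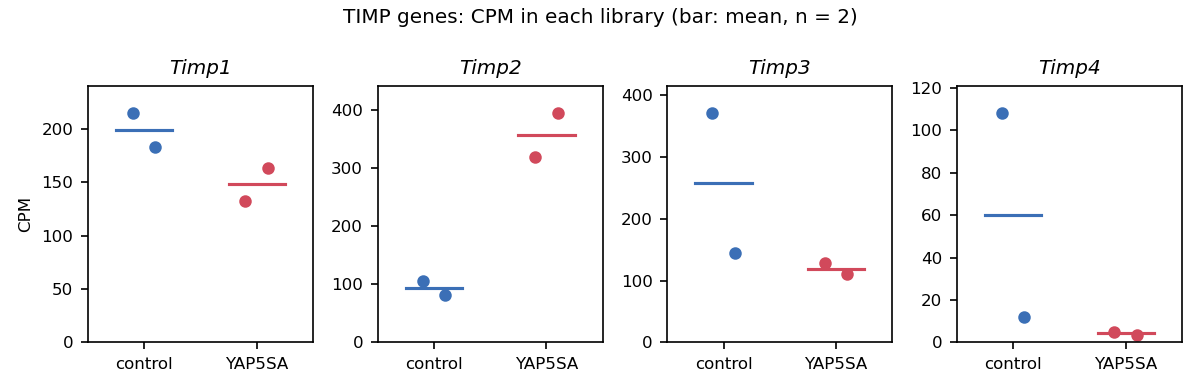
CPM of the 4 TIMP genes in each library, with the group mean as a bar (n = 2 libraries per group; each vertical axis starts at 0). Timp2 is higher in both YAP5SA libraries, and for Timp3 and Timp4 control replicate 1 stands far above control replicate 2.

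Summed over all 84 genes, the level was 2924 and 2586 CPM in control and 3867 and 4269.7 CPM in YAP5SA. Adamts1, Adam9, Timp2 and Adamts5 made up 37.5%, 21.04%, 19.99% and 16.7% of the net difference, and together were at 694 and 741 CPM in control and 1849 and 2086 CPM in YAP5SA. Without these 4 genes the sum was 2231 and 1845 CPM in control and 2018 and 2184 CPM in YAP5SA, and the groups overlapped. They were picked from the same values as the 4 largest increases, so a smaller difference without them was fixed in advance. The remaining sum holds both rises (Adamtsl4, 93.4 CPM between the group means) and falls (Timp3, -138 CPM). Levels of different genes were compared as CPM per kilobase of exon, with exons from GENCODE M21, which would misstate levels where intronic reads were counted. On this scale Timp1 was the highest in control (242 and 206 CPM per kilobase), followed by Adamts1 (61.9 and 73.0), Adam9 (51.2 and 56.9) and Timp3 (45.4 and 17.8). Adamts1 and Adam9 did not overlap, while Timp3 overlapped with the genes ranked after it, Adamtsl5 (22.1 and 34.6) and Adam10 (25.3 and 28.4). In YAP5SA Timp1 (149 and 184 CPM per kilobase) and Adamts1 (153 and 167) overlapped, followed by Adam9 (115 and 128) and Timp2 (81.8 and 101), and the level of Adamts5 was 22.9 and 26.0, against 4.56 and 3.64 in control. By mean CPM over the 4 libraries, 12 of the 84 genes were at 100 or above, 23 between 10 and 100, 21 between 1 and 10, and 15 above 0 but under 1.

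Many genes of the families were unequal between the control libraries. The CPM of the control libraries differed at least 2-fold for 17 of the 57 tested genes (29.8%), against 18.4% of all tested genes, and that of the YAP5SA libraries for 2 (3.51%), against 3.46%. Higher in control replicate 1 were Timp4, Mmp3, Adam8, Mmp25, Timp3, Adam33, Adam12, Adamts9, Adamts12 and Mmp19. Higher in control replicate 2 were Adam4, Mmp12, Adamts20, Adamts15, Adamts8, Adam19 and Adamtsl1. The gap was 9.07-fold for Timp4 and 7.54-fold for Mmp3. Of the 7 genes past the threshold, none had control libraries that differed 2-fold. A wide control spread raises the p-value, so the threshold itself favours genes with a small control gap. The calls of the 7 genes rested on the YAP5SA pair as well. With either YAP5SA library removed, the lone library was assumed to vary like the control pair, and the calls of all 7 were lost except that of Adamts5 without YAP5SA replicate 1, while the log2 fold changes kept their sign. With either control library removed, the spread came from the YAP5SA pair alone. The 7 genes stayed past the threshold there, but so were 18.8% to 19.7% of all genes upward and 17.4% to 18.6% downward, so these fits say little about the stability of the calls.

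**Figure D4:**
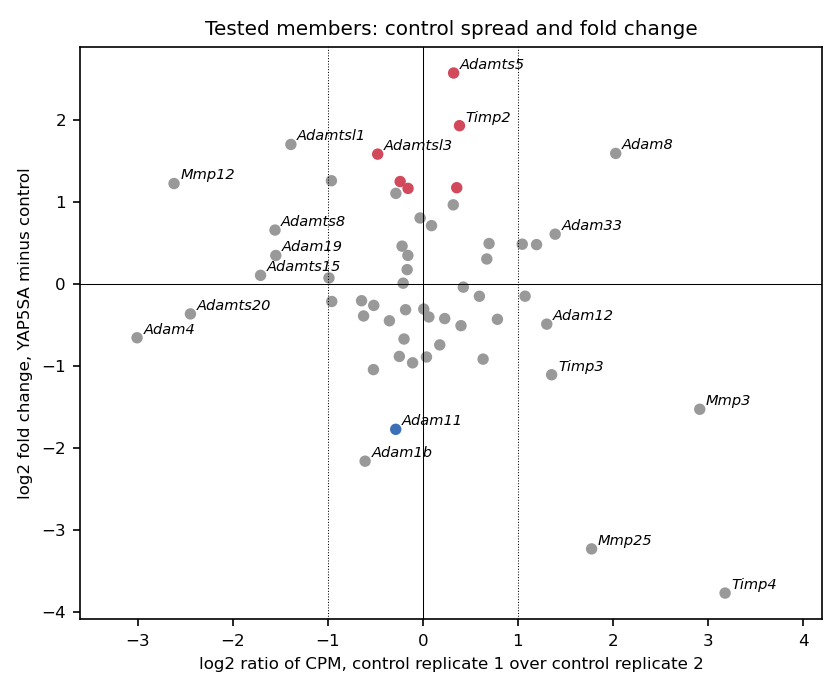
Log2 fold change (YAP5SA minus control, vertical axis) against the log2 ratio of CPM in control replicate 1 over control replicate 2 (horizontal axis) for the 57 tested genes, with dotted lines at a 2-fold ratio and colours as for the fold change plot by family. The axes share the control libraries. The 7 genes past the threshold lie inside the dotted lines, and Timp4, Mmp3 and Mmp25 lie to the right of them. The threshold itself favours genes with a small control gap.

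Some of the genes that rose are neighbours. Adamts1 and Adamts5 lie on the same strand of chromosome 16, 53060 bases apart, with no other protein-coding gene of the table between them, and both rose. The genes on either side did not pass. Cyyr1, 240430 bases from Adamts1, was at 149 and 60.0 CPM in control and 50.9 and 39.6 CPM in YAP5SA (adjusted p = 0.180), and N6amt1, 1452357 bases from Adamts5, was at 18.2 and 22.5 against 17.2 and 18.5 CPM (adjusted p = 0.621). On either side of the other genes that rose, Ecm1, a matrix protein gene 46230 bases from Adamtsl4, was at 89.7 and 44.0 CPM in control and 194 and 235 CPM in YAP5SA (adjusted p = 0.0673). Mcl1 on its other side had an adjusted p of 0.577. Lgals3bp, 37011 bases from Timp2, was at 46.1 and 46.8 against 77.4 and 85.8 CPM (adjusted p = 0.0567), and Usp36 on the other side of Timp2 had an adjusted p of 0.516. Tm2d2 beside Adam9 was at 27.0 and 25.1 against 35.4 and 40.6 CPM (adjusted p = 0.145). None of these 5 genes passed. Adam32, 807 bases from Adam9 on the same strand, was at 4.35 and 6.21 CPM in control and 5.53 and 3.19 CPM in YAP5SA, and did not pass (adjusted p = 0.734). Adamts15 and Adamts8 face away from each other on chromosome 9, 20110 bases apart. Both were higher in control replicate 2 than in control replicate 1, 3.26-fold and 2.94-fold.

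Substrates and regulators from lists made for this comparison were counted beside the shares over all tested genes. Of 20 tested regulators of metalloproteinases outside the families, 1 rose and 0 fell (2 and 0 with DESeq2, 1 and 0 with limma-voom). At an unadjusted p under 0.05, 3 were higher and 1 lower. Over all tested genes 3.12% rose and 0.999% fell, and 12.7% and 10.9% were higher and lower at that unadjusted p. Thbs1, which encodes the matricellular protein thrombospondin-1, was at 282 and 443 CPM in control and 3014 and 2853 CPM in YAP5SA (log2 fold change 3.02, adjusted p = 0.0284). Rhbdf1, which encodes iRhom1, a cofactor of ADAM17 maturation, was at 38.8 and 48.1 against 74.5 and 81.5 CPM (adjusted p = 0.0691). The largest negative value was that of Spock2, which encodes a testican proteoglycan, and rested on control replicate 1 (76.4 CPM, against 4.63 in control replicate 2 and 3.17 and 3.34 in YAP5SA, adjusted p = 0.153). Tspan15, a tetraspanin gene whose product escorts ADAM10, was at 20.7 and 12.4 against 10.6 and 10.02 CPM (adjusted p = 0.236). Furin, which encodes the protease that activates many ADAM and membrane-type MMP proenzymes, was at 335 and 216 against 198 and 197 CPM (adjusted p = 0.313).

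Of 13 other secreted matrix proteases and their enhancers, 2 rose and 0 fell (5 and 0 with DESeq2, 3 and 0 with limma-voom), and 7 were higher at an unadjusted p under 0.05, where 3.12% of all tested genes rose and 12.7% were higher at that unadjusted p. Plau, which encodes urokinase, was at 16.5 and 15.99 CPM in control and 48.0 and 59.4 CPM in YAP5SA (adjusted p = 0.0276), and Htra1, a secreted serine protease gene, at 47.8 and 85.1 against 229 and 257 CPM (adjusted p = 0.0426). The smallest adjusted p values downward were 0.538 for Hpse, the heparanase gene, and 0.798 for Pcolce2, a procollagen proteinase enhancer gene. Of 20 matrix substrates, Lum, which encodes the collagen-binding proteoglycan lumican, rose (59.9 and 68.7 against 132 and 156 CPM, adjusted p = 0.0394) and Vwf, whose product ADAMTS13 cuts, fell (174 and 142 against 55.5 and 72.8 CPM, adjusted p = 0.0428). With DESeq2, 3 rose and 1 fell, and with limma-voom 1 and 1. Over all genes tested with edgeR, 3.12% rose and 0.999% fell. Lum and Vwf are also among the fibroblast and endothelial markers. Tnc, the tenascin-C gene, was at 494 and 702 against 1035 and 1352 CPM (adjusted p = 0.127), and Eln, the elastin gene, at 94.4 and 42.4 against 33.1 and 33.2 CPM (adjusted p = 0.180). Vcan, the versican gene, was at 509 and 337 CPM in control and 381 and 469 CPM in YAP5SA and did not pass (adjusted p = 0.993), and Acan, the aggrecan gene, was at 0.456 to 1.45 CPM and was not tested. Of 30 membrane substrates of ADAM sheddases, 2 rose and 0 fell, where 3.12% and 0.999% of all tested genes did. With DESeq2 the numbers were 7 and 1, and with limma-voom 2 and 0. At an unadjusted p under 0.05, 12 were higher and 3 lower, beside 12.7% and 10.9% of all tested genes. Vcam1, a leukocyte adhesion receptor gene, was at 48.4 and 59.2 CPM in control and 292 and 345 CPM in YAP5SA (adjusted p = 0.0157). Tgfa, an EGF receptor ligand gene, was at 3.44 and 3.57 against 15.9 and 16.8 CPM (adjusted p = 0.0257). Among the lower genes were Dll4, a Notch ligand gene (44.5 and 28.9 against 15.7 and 15.0 CPM, adjusted p = 0.0590), and Btc, the betacellulin gene (6.07 and 2.51 against 1.48 and 1.59 CPM, adjusted p = 0.163). Neither passed with edgeR, and Dll4 fell with DESeq2. Csf1r and Cdh5 of this list are also among the macrophage and endothelial markers. The median log2 fold change was 0.18 for the regulators, 0.55 for the other proteases, 0.09 for the matrix substrates and 0.61 for the membrane substrates.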

How the data were processed

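The deposited table holds raw counts per gene symbol in whole numbers, not normalized by the authors. Reads had been mapped to mm10 with STAR and tested with DESeq2, per the labels' protocols. Libraries were made from total RNA with a stranded kit that removes ribosomal RNA. No source used here names the counting program, its strand setting, the annotation or the versions. ATAC-seq and 4C-seq samples were not analysed here. From the counts, genes were kept with filterByExpr (minimum count 10), scaled by TMM and tested with edgeR 4.0.16 (glmQLFTest, R 4.3.3), 2 YAP5SA against 2 control libraries with no replicate block. Standard errors are the absolute log2 fold change over the root of the F statistic. CPM uses the TMM-scaled totals. The pipeline was tested on simulated data. Alternatives were other scaling, other filters, DESeq2 1.42.0, limma-voom 3.58.1, a replicate block, and leaving out each library. Coordinates came from GENCODE M21 (GRCm38, which is mm10), where all 84 symbols matched, and promoters from RefSeq (GRCm38.p6). Of the tested genes, 16 share exon bases with a gene on the other strand, none of them past the threshold. Named genes were those past the threshold, those with an unadjusted p under 0.05, those with a log2 fold change of at least 1 in size and no overlap, the 10 most abundant, and Timp1 to Timp4, Mmp2, Mmp9, Mmp14, Adam10 and Adam17. From each other list came the 2 smallest adjusted p in each direction. Any other gene was picked with its values in view. The genes and lists were chosen with earlier results of these data known.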

Additional observations from a re-analysis of the deposited data

How the results depend on the processing

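The numbers of higher and lower genes of the families were 6 and 1. They were 6 and 2 with library totals alone, 10 and 7 with no filter on low counts, and 10 and 2 with DESeq2. Over all genes 553 and 177 were called, 1727 and 1689 with no filter, and 1069 and 527 with DESeq2. With a replicate block the numbers were 3 and 1 for the families (Adamts1, Adam9 and Adamtsl4 did not pass) and 321 and 112 over all genes; the titles' replicate numbers are not said to mark a shared animal or batch, and same-numbered libraries deviated from their group means with r = -0.10 across genes. A crossed replicate block, chosen after seeing the data, gave 4 and 0 (Adamts1, Adam9 and Adam11 did not pass), and 328 and 103 over all genes. With edgeR, 8 of the 57 tested genes of the families (14.0%) were lower at an unadjusted p under 0.05 in that crossed fit, as were 9.87% of all tested genes. Leaving out 1 library gave 0 to 19 higher and 0 to 19 lower genes of the families, and 27 to 3749 higher and 0 to 3554 lower over all genes. Without YAP5SA replicate 2, the median log2 fold change was -0.20 for the tested genes of the families and -0.06 over all tested genes. Without YAP5SA replicate 1, both medians were -0.09. These fits hold 1 YAP5SA library, so that the spread comes from the control pair alone. Over all genes the 0 lower came without YAP5SA replicate 2, with 540 at an unadjusted p under 0.05. The log2 fold change of Adam19 was -0.22 without control replicate 1 and 1.35 without control replicate 2 (0.35 with all libraries), and that of Adamtsl5 was -0.49 and 0.19 in these fits (-0.21 with all libraries). The cause was not tested. The other 29 of the 31 genes named by rule kept their sign in each setting in which they were tested. Outside these 31, signs were not all stable. Adam4, Adamts12, Adamts15 and Adamts20 had opposite signs in the fits without control replicate 1 and without control replicate 2. The filter on low counts left 27 genes untested, 13 of them at 0 counts in all libraries.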

Other observations

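Several genes that did not pass or were not tested were high in control replicate 1 alone, and were picked out after their values were seen. Timp4 was at 108 CPM there and at 3.65 to 11.9 CPM in the other 3 libraries. Spock2, a testican gene, was at 76.4 CPM against 3.17 to 4.63 CPM. Mmp10 had 15 counts against 0 in the others, and Mmp3 was at 21.9 CPM against 2.91 to 4.40 CPM. Mmp25 had 35 counts against 2 to 7. In that library the summed cardiomyocyte markers were at 33015 CPM, against 67817 CPM in control replicate 2, and the endothelial markers at 1964 against 1334 CPM. With 2 control libraries, which of them is closer to other control animals was not tested.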
